A study of Mus musculus with 23 samples.

Results

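The tight junction genes described here are 6 claudins (Cldn1, Cldn3, Cldn4, Cldn6, Cldn7 and Cldn10), the MARVEL-domain genes Ocln and Marveld2, and the scaffold gene Tjp1. They were taken by name, and all 9 were found among the 54347 genes of the deposited count table, whose Ensembl identifiers were mapped to symbols with the version dropped. The levels come from RNA sequencing of 23 libraries of cells from the labial cervical loop of the lower incisor, the fold of epithelium at the root end of this ever-growing mouse tooth. All mice were at postnatal day 2 and carried a Sox2-GFP reporter, in which the endogenous Sox2 promoter drives the fluorescent protein. Dissociated cells were sorted by fluorescence into Sox2-positive cells, called dental epithelial stem cells by the submitters, and Sox2-negative cells, and libraries followed the Smart-seq2 protocol. Batch A gave 6 Sox2-negative and 6 Sox2-positive libraries, and batch B gave 4 and 7, with no treatment named for any of them. The batches were different mice on different days, which cannot be told apart. The labels do not say whether libraries of 1 batch came from separate mice, so p-values measure the spread between these libraries, which may be technical. The positive sort follows reporter fluorescence, not Sox2 itself, and the negative sort holds every other cell type of the dissected region.

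Tight junctions seal the space between neighbouring epithelial cells near their apical side. Claudins are membrane proteins that polymerise into strands, and the claudins present set how tight a sheet is and which ions cross it. Occludin and tricellulin, the MARVEL proteins encoded by Ocln and Marveld2, join the strands at contacts between cell pairs and at corners where cells meet, and ZO-1, encoded by Tjp1, ties the strands to actin from inside.

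Promoter sequences are shown first, because the E-box CACCTG is the motif through which Snail and Zeb repressors are known to act on claudin and occludin genes. RefSeq windows on GRCm38.p6, from 250 bases before to 50 bases after a start of transcription, were available for all 9 genes as 13 windows. CACCTG on either strand (read as CAGGTG on the other) was present in 8 of these 13 windows and in 6 of 9 genes, Cldn3, Cldn4, Cldn6, Cldn7, Ocln and Marveld2. Among all windows of the same length, 20.21% of 32851 held it, or 22.56% of 27025 genes. The matches made up 10 separate sites, and 6 of them are printed here with flanks, on the gene's own strand and with the motif in capitals. Positions are counted from the start of transcription, whose first base is 1, and bases before it are negative.
Cldn4, position -14, chr5:134946931-134946960: ctttaactgcagCACCTGtggccgcccttt
Cldn4, position 12, chr5:134946906-134946935: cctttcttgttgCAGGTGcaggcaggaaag
Cldn3, position 32, chr5:134986233-134986262: caaagccacaggCAGGTGcaggggcagtct
Cldn6, position -93, chr17:23679260-23679289: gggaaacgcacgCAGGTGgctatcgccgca
Cldn7, position -97, chr11:69965312-69965341: tttcttcctcttCACCTGgacgaggagggg
Ocln, position 8, chr13:100552694-100552723: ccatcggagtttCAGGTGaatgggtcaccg

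The same 6 letters also occur where many exons end, since CAG followed by GTG can be the last bases of an exon and the first of an intron. In the GENCODE M21 annotation an exon end of the same gene fell inside the motif at 4 of the 10 sites, in Cldn6, Cldn7, Ocln and Marveld2. The Ocln example is shown for comparison with the printed sites above, none of which has an exon end inside the motif.
Ocln, position -68, chr13:100552549-100552578: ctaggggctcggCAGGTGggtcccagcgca

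Of the 10 sites 6 lay wholly inside an annotated exon, 1 of these, in Marveld2, also being an exon end of another transcript. The Cldn4 site at position -14 was the 1 site that was neither inside an exon nor across an exon's end. Cldn1, Cldn10 and Tjp1 had no match in these windows. The grainyhead-like core AACCNGTT, searched on both strands, was in 0 of 9 genes, against 2.35% of all genes, and TATAAA was in 1 of 9, Marveld2, against 15.67%. The Marveld2 match was on the opposite strand (read as TTTATA), with its first base at position -223 from 1 start and -250 from the other. Cldn10, the gene with the highest level in Sox2-positive cells, has 2 annotated starts, and these windows had the lowest and the highest GC content of the 13, 36% and 72%, against a median of 52.67% over all windows. The 120 bases before the first of these starts, chr14:118787751-118787870 on the plus strand, show this low GC content and have no part in capitals because no searched motif is present.
Cldn10, first start: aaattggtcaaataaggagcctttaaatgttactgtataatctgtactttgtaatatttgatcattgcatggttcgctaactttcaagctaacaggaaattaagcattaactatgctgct
Matches of this kind describe letters in a window and not binding. Counts per gene do not say which of the 2 Cldn10 starts was used.

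**Figure D1:**
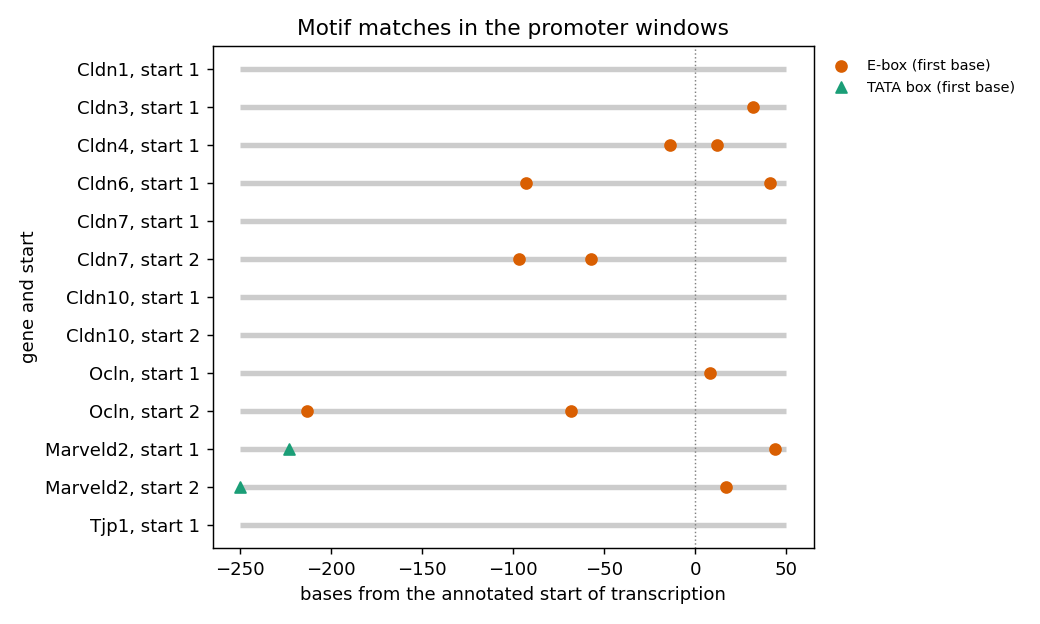
Promoter windows (rows, gene and RefSeq start) with the first base of each E-box match (circles) and TATAAA match (triangles, labelled TATA box), on either strand, against distance from the start in bases. Matches lie in 8 of 13 windows for the E-box, and neighbouring windows of Ocln or Marveld2 share sequence, so that some sites are drawn again at another distance.

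Library totals ran from 2305778 to 9541443 estimated counts, so that 3 counts correspond to between 0.357 and 1.30 CPM (counts per megacount of the library total after TMM scaling). Such floors cover counting error only, because reads that carry no molecular identifier can be copies of 1 molecule. Sox2 itself, the gene of the sort, averaged 7.27 and 16.4 CPM in Sox2-positive libraries of batches A and B and at most 1.19 CPM in any Sox2-negative library. The sorts were also described with 12 epithelial marker genes, a list chosen with earlier results of these data known. All 12 were detected in every group and called higher in Sox2-positive cells over both batches, beside 24.9% of all genes tested. Their summed level ran from 4157 to 4521 CPM in batch A and from 4335 to 6066 CPM in batch B Sox2-positive libraries, against 227 to 350.2 CPM and 549 to 581 CPM in Sox2-negative libraries. Lists of dental epithelium were mixed. Of 10 dental epithelial markers, 6 were called higher and 3 lower over both batches. Of 5 ameloblast markers tested, 1 was called higher and 4 lower, beside 24.9% and 32.5% of all genes. Summed ameloblast markers had medians of 879 and 663 CPM in Sox2-negative and 325 and 12.2 CPM in Sox2-positive cells of batches A and B. The part of epithelial cell content in the results below was not tested. In sorted bulk cells fewer cells of a type and less RNA per cell cannot be told apart.

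Claudin and occludin genes were higher in Sox2-positive than in Sox2-negative cells, whereas the scaffold gene Tjp1 was not. Genes were tested with edgeR's quasi-likelihood test, first over the 23 libraries with batch in the model and then in each batch alone, and called at a Benjamini-Hochberg adjusted p under 0.05 over all genes tested. Over both batches 8 of the 9 genes passed the filter on low counts, and 6 were called higher (Cldn1, Cldn4, Cldn6, Cldn7, Cldn10 and Ocln), 1 lower (Tjp1) and 1 was not called (Marveld2). Of all 17190 genes tested, 24.9% were called higher and 32.5% lower. In batch A 8 were tested and the same 6 were called higher, where 19.3% of genes were. In batch B all 9 were tested and 8 were called higher, all but Tjp1, where 27.1% of genes were. Among the 8 tested in both batches separately, 6 were called higher in each, against 14.6% of 13990 genes. The median log2 fold change of the members tested was 4.67 over both batches and 4.57 in batch B, beside -0.12 and 0.01 over all genes tested. In batch A it was 4.98, or 4.37 with Cldn4 set to its lower bound, beside -0.04. Every Sox2-positive library lay above every Sox2-negative library of its batch for 6 genes in batch A, where 12.4% of genes tested showed this, and for 8 genes in batch B, where 17.4% did. Some of these genes, such as Cldn3 in batch B and Cldn4 in batch A, passed the filter through Sox2-positive libraries alone. Such genes could not have been called lower, so these counts are a description.

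**Figure D2:**
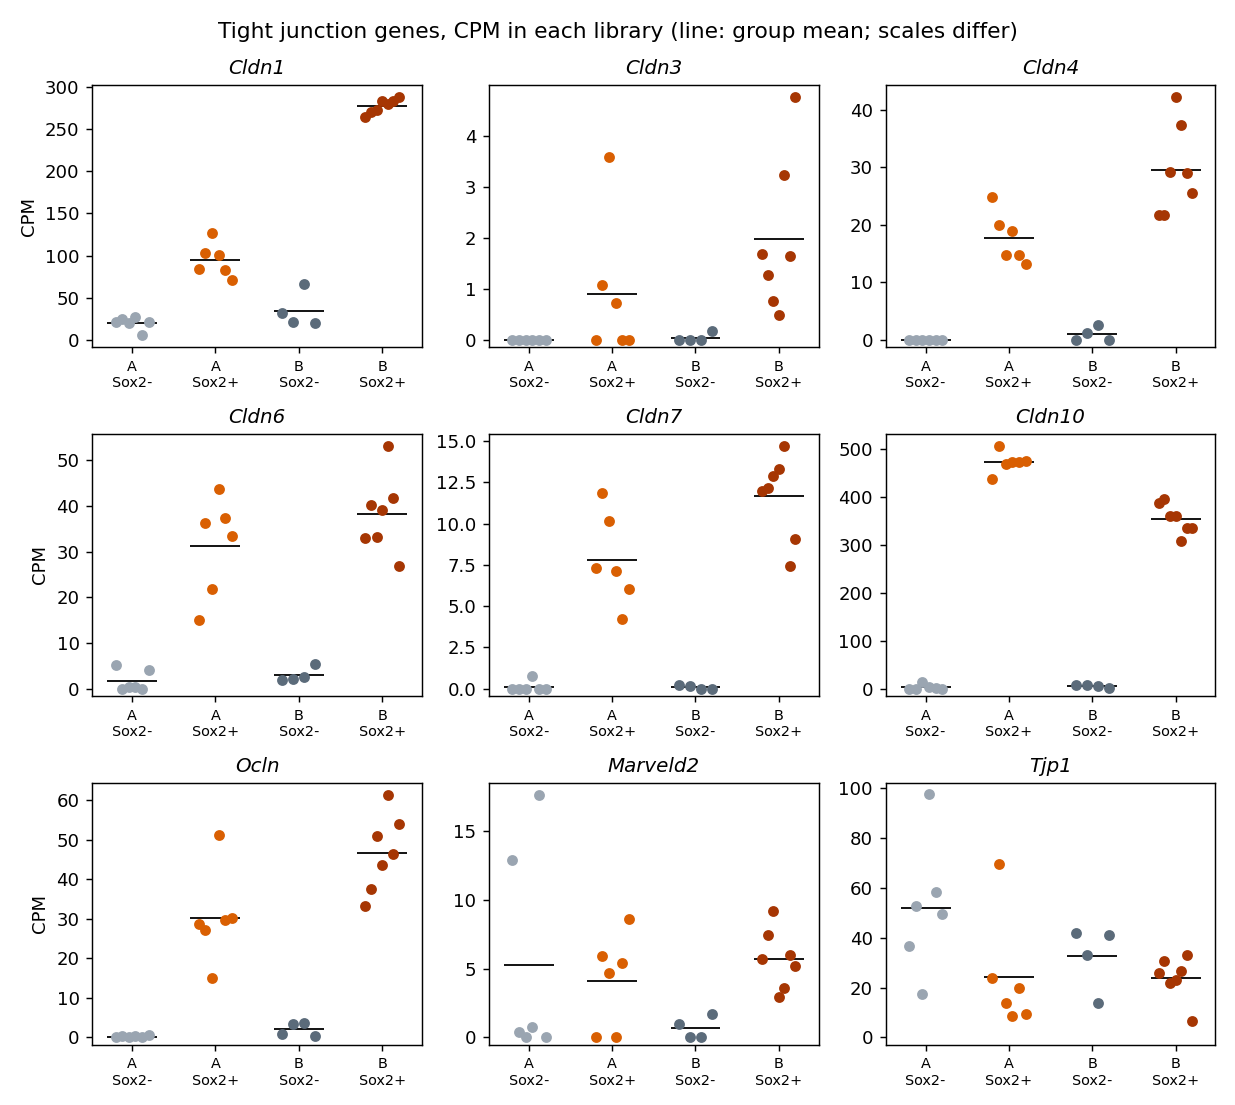
CPM of each gene in each library (points) with the group mean (line), in batch A and batch B Sox2-negative and Sox2-positive cells, on a separate scale for each gene. For Cldn1, Cldn4, Cldn6, Cldn7, Cldn10 and Ocln the Sox2-positive points lie above all Sox2-negative points of the same batch, while those of Tjp1 overlap.

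Cldn10 (ENSMUSG00000022132.15; chromosome 14, 118787908 to 118875489, plus strand, GRCm38) encodes a claudin that forms ion-selective paracellular channels, and its 2 first exons give proteins of different charge selectivity. In batch A Sox2-positive libraries it ran from 438 to 506 CPM with a median of 474, and in batch B from 307 to 396 CPM with a median of 360.0. In batch A Sox2-negative libraries it ran from 0 to 13.4 CPM with a median of 0.315, and 3 of the 6 libraries had none. The batch B Sox2-negative libraries had 6.78, 7.65, 6.52 and 1.87 CPM. The populations were thus far apart in both batches, with means of 472 ± 21.9 against 2.87 ± 5.32 CPM (SD, n = 6 and 6) and 355 ± 31.2 against 5.70 ± 2.60 CPM (n = 7 and 4). Over both batches the fitted log2 difference was 6.62 (SE 0.46, edgeR adjusted p 2.12e-12), and it was 7.42 (SE 0.69) in batch A and 6.01 (SE 0.26) in batch B.

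Cldn1 (ENSMUSG00000022512.3; chromosome 16, 26356642 to 26371841, minus strand), a sealing claudin required for the barrier of the skin, was present in every library of both populations. In batch A it ran from 71.1 to 126 CPM with a median of 91.9 in Sox2-positive libraries and from 6.30 to 26.9 CPM with a median of 21.1 in Sox2-negative libraries. In batch B it ran from 264 to 288 CPM with a median of 280.2 in Sox2-positive libraries, and the Sox2-negative libraries had 31.6, 20.9, 66.0 and 19.9 CPM. The populations did not overlap in either batch, and batch B Sox2-negative library 3 had more Cldn1 than any other Sox2-negative library. Among the 6 genes called higher over both batches Cldn1 had the smallest log2 fold change, 2.60 (SE 0.22, edgeR adjusted p 1.52e-10). It was 2.25 (SE 0.29) in batch A and 3.07 (SE 0.28) in batch B.

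Cldn6 (ENSMUSG00000023906.3; chromosome 17, 23679249 to 23682446, plus strand) is a claudin of embryonic and early postnatal epithelia. It ran from 15.1 to 43.6 CPM with a median of 34.8 in batch A Sox2-positive libraries and from 26.8 to 53.1 CPM with a median of 39.0 in batch B. In batch A Sox2-negative libraries 1 and 6 had 5.17 and 4.03 CPM and the other libraries at most 0.264, while the batch B libraries had 1.90, 2.10, 2.61 and 5.44 CPM. The Sox2-positive libraries were above all of these, by a log2 fold change of 3.97 (SE 0.48, edgeR adjusted p 1.02e-07) over both batches. Cldn9 starts 137 bases beyond the end of Cldn6, and the strand setting of the counting is not given in the sources used here.

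Cldn4 (ENSMUSG00000047501.3; chromosome 5, 134945119 to 134946934, minus strand), a barrier-forming claudin of many epithelia, had no count in any of the 6 batch A Sox2-negative libraries. In batch A Sox2-positive libraries it ran from 13.2 to 24.8 CPM with a median of 16.8. It was therefore at least 22.0-fold higher in that batch, taking 3 counts in the library with the highest floor (0.806 CPM) as the limit. In batch B the Sox2-negative libraries had 0, 1.20, 2.61 and 0 CPM, and the Sox2-positive libraries ran from 21.7 to 42.2 CPM with a median of 29.0. In batch B this was a log2 fold change of 5.04 (SE 0.68, edgeR adjusted p 1.22e-05), and over both batches one of 5.92 (SE 0.60, edgeR adjusted p 4.29e-09).

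Cldn7 (ENSMUSG00000018569.12; chromosome 11, 69964779 to 69967885, plus strand), a claudin found along the lateral membrane as well as at the junction, had lower levels and also did not overlap between populations. It ran from 4.23 to 11.8 CPM with a median of 7.21 in batch A and from 7.44 to 14.7 CPM with a median of 12.1 in batch B Sox2-positive libraries. Sox2-negative libraries held 3 counts in all in each batch, in 1 of 6 libraries in batch A (0.785 CPM) and at 0.238, 0.150, 0 and 0 CPM in batch B. The ratio of pooled levels was 64.4 in batch A (95% exact counting interval 21.8 to 314) and 105 in batch B (35.7 to 512). The fit over both batches gave a log2 fold change of 6.10 (SE 0.61, edgeR adjusted p 2.69e-09).

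Cldn3 (ENSMUSG00000070473.4; chromosome 5, 134986214 to 134987472, plus strand), a barrier claudin that lies 39279 bases from Cldn4 with no protein-coding gene between them, was near the floor of detection. It had no count in any batch A Sox2-negative library and 1 count in all of batch B Sox2-negative libraries (0, 0, 0 and 0.170 CPM). In batch A Sox2-positive libraries it ran from 0 to 3.57 CPM with a median of 0.356, and 3 of 6 libraries had none, so the groups overlapped and the gene did not pass the filter. In batch B Sox2-positive libraries it ran from 0.485 to 4.75 CPM with a median of 1.63 and all 7 were above the Sox2-negative libraries. The ratio of pooled levels there was 43.5 (95% exact counting interval 7.49 to 1748), with a log2 fold change of 5.03 (SE 1.06, edgeR adjusted p 8.03e-04). The annotated antisense gene Wbscr25 overlaps Cldn3, and the strand setting of the counting is not given. Reads in the bases that the pair shares may not have been told apart.

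Ocln (ENSMUSG00000021638.12; chromosome 13, 100496507 to 100552718, minus strand) encodes occludin, which lies in the strands beside the claudins. It ran from 15.0 to 51.2 CPM with a median of 29.1 in batch A and from 33.3 to 61.4 CPM with a median of 46.5 in batch B Sox2-positive libraries. In batch A Sox2-negative libraries it ran from 0 to 0.537 CPM with a median of 0.131, and the batch B libraries had 0.832, 3.30, 3.75 and 0.340 CPM. No library overlapped the other population. Occludin's log2 fold change over both batches was 5.38 (SE 0.46, edgeR adjusted p 1.48e-10), and it was 7.05 (SE 0.69) in batch A and 4.57 (SE 0.45) in batch B.

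Marveld2 (ENSMUSG00000021636.15; chromosome 13, 100595957 to 100616971, minus strand), the tricellulin gene, lies 43238 bases from Ocln with no protein-coding gene between them. Its batch A libraries overlapped widely. Sox2-negative libraries ran from 0 to 17.6 CPM with a median of 0.606, where libraries 1 and 5 had 12.9 and 17.6 CPM and the others at most 0.785. Sox2-positive libraries ran from 0 to 8.60 CPM with a median of 5.07, and libraries 1 and 4 had none. The batch A fit gave a log2 fold change of -0.35 (SE 1.26, edgeR adjusted p 0.842). In batch B the Sox2-negative libraries had 0.951, 0, 0 and 1.70 CPM and the Sox2-positive libraries ran from 2.91 to 9.20 CPM with a median of 5.73, with no overlap. There the value was 3.15 (SE 0.83, edgeR adjusted p 0.00432), and without the batch B libraries numbered 1 and 2 of both populations it was 2.68 (adjusted p 0.0700). Over both batches it was 0.98 (SE 1.03, edgeR adjusted p 0.427), and the difference between batches did not pass the threshold (interaction 3.43, SE 1.73, edgeR adjusted p 0.272).

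Tjp1 (ENSMUSG00000030516.14; chromosome 7, 65296165 to 65527781, minus strand), which encodes ZO-1, is used at adherens junctions of many cell types besides epithelia. It was detected in every library. Sox2-negative libraries ran from 17.4 to 97.6 CPM with a median of 51.0 in batch A and had 42.0, 33.0, 13.9 and 41.1 CPM in batch B. Levels in Sox2-positive libraries ran from 8.54 to 69.6 CPM with a median of 16.9 in batch A and from 6.48 to 33.2 CPM with a median of 25.9 in batch B. The populations overlapped in both batches. Over both batches the Tjp1 value on the log2 scale was -0.80 (SE 0.34, edgeR adjusted p 0.0449), beside -1.09 (SE 0.50, adjusted p 0.0902) in batch A and -0.35 (SE 0.34, adjusted p 0.399) in batch B. This call was lost in 20 of 23 fits that each left out 1 library, with an adjusted p up to 0.109, under total-count scaling (adjusted p 0.0882) and without the batch B libraries numbered 1 and 2 (adjusted p 0.111). Without batch A Sox2-positive library 2, whose 69.6 CPM stood apart, the batch A value was -1.76 (adjusted p 0.00388).

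**Figure D3:**
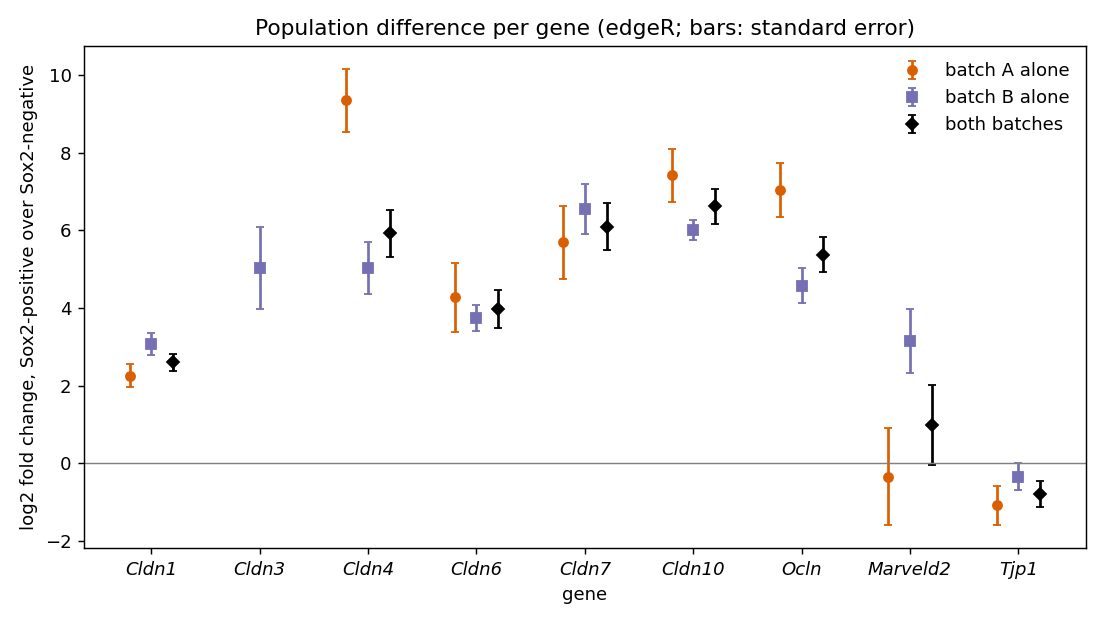
Log2 fold change of Sox2-positive over Sox2-negative cells (vertical axis) for each gene, with its standard error, in batch A, batch B and both batches. The 5 tested claudins and Ocln lie between 2.25 and 9.36 in every fit, Tjp1 lies below 0, and the Cldn4 value of 9.36 in batch A rests on a group with no count and is no bound. Cldn3 was tested in batch B only.

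To compare the genes with each other, CPM was divided by the median length of each gene's protein-coding transcripts in kilobases. In Sox2-positive libraries Cldn10 was first on this scale, at 411 ± 19.1 CPM per kilobase in batch A (SD, n = 6) and 309 ± 27.2 in batch B (n = 7), with no library overlapping the next gene. Cldn1 was second, at 29.1 ± 6.02 in batch A, where its range overlapped that of Cldn6 (21.8 ± 7.46). In batch B Cldn1 stood alone at 85.4 ± 2.70. Cldn6, Ocln, Cldn4 and Cldn7 followed in that order in both batches, from 21.8 down to 9.32 in batch A and from 26.6 down to 14.0 in batch B, and each overlapped its neighbour. Tjp1 (3.96 and 3.92), Marveld2 (1.57 and 2.18) and Cldn3 (0.710 and 1.57) came last and also overlapped in turn.

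In Sox2-negative cells the order was different and its neighbours were not separated. Tjp1 was first in batch A at 8.51 ± 4.37 CPM per kilobase (n = 6), before Cldn1 at 6.14 ± 2.23. In batch B Cldn1 was first at 10.7 ± 6.66 (n = 4), before Tjp1 at 5.32 ± 2.14. Every gene in these orders overlapped the next. Of the length-scaled level of the 6 claudins, Cldn10 made up 85.3% and 68.2% in Sox2-positive cells of batches A and B, and Cldn1 6.04% and 18.9%. In Sox2-negative cells Cldn1 made up 61.9% and 57.9%, and Cldn10 25.2% and 27.0%. Read as a ratio of mean levels per kilobase, Cldn10 to Cldn1 was 14.1 and 3.62 in Sox2-positive cells and 0.407 and 0.466 in Sox2-negative cells. The summed CPM of the 6 claudins was 624 ± 39.2 and 713 ± 20.4 in Sox2-positive cells and 24.6 ± 9.29 and 44.4 ± 22.9 in Sox2-negative cells of batches A and B.

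**Figure D4:**
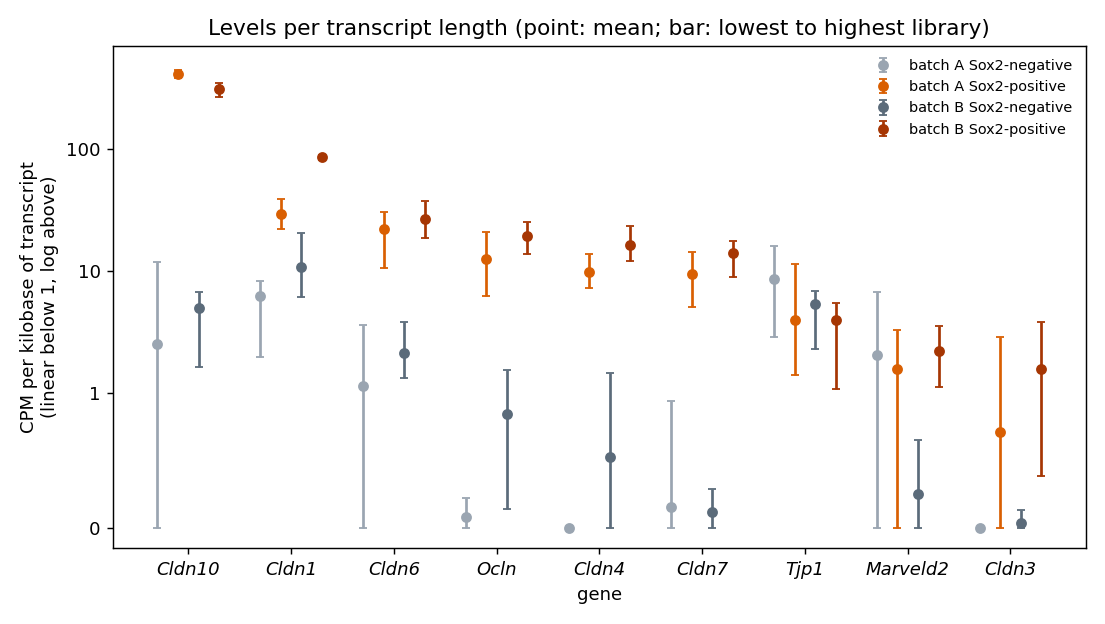
Mean level per kilobase of transcript (points; vertical axis linear below 1 and logarithmic above) with the lowest and highest library (bars) for each gene in the 4 groups. Cldn10 at 411 and 309 CPM per kilobase lies above every other gene in Sox2-positive cells, and Tjp1 shows the smallest distance between the populations among the called genes.

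The batches were then compared within each population. In Sox2-positive cells 1 of the 8 genes tested was called higher in batch B, where 4.85% of all genes were, and this was Cldn1. It averaged 277 ± 8.77 CPM in batch B (n = 7) and 94.5 ± 19.6 CPM in batch A (n = 6), with no overlap (log2 difference 1.55, SE 0.25, edgeR adjusted p 7.56e-05). Over the 30 alternative fits the difference ran from 1.46 to 1.66 and its adjusted p stayed at or under 4.57e-04. Cldn10 had the opposite sign and was not called, at 355 CPM in batch B and 472 in batch A (log2 difference -0.41, SE 0.38, edgeR adjusted p 0.605), although the libraries of the 2 batches did not overlap. Under limma-voom Cldn10 was called lower in batch B (-0.42, adjusted p 9.73e-05), and Cldn4 (0.78, adjusted p 0.0241) and Ocln (0.69, adjusted p 0.0179) were called higher. Of the 12 epithelial markers, 2 were called higher in batch B within Sox2-positive cells, and their summed median was 5731 CPM there against 4332 CPM in batch A. Some other marker lists had lower summed medians in batch B Sox2-positive cells. These were 12.2 against 325 CPM for ameloblast, 107 against 1452 CPM for glial and neural crest, and 839 against 1762 CPM for mesenchymal markers. Endothelial markers were similar, at 29.9 against 28.2 CPM, and markers of keratinocyte differentiation were higher, at 56.7 against 41.0 CPM. The part of these marker differences in the values of the tight junction genes was not tested.

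In Sox2-negative cells 2 of 8 genes were called higher in batch B, where 5.85% of all genes were. Ocln averaged 2.06 ± 1.72 CPM in batch B (n = 4) and 0.204 ± 0.240 CPM in batch A (n = 6), a log2 difference of 3.18 (SE 0.68, edgeR adjusted p 0.00237), and the ranges overlapped. Cldn4 was present in batch B libraries 2 and 3 and in none of the batch A libraries (edgeR adjusted p 0.00754). Under limma-voom neither was called (adjusted p 0.155 for Ocln and 0.500 for Cldn4), and Cldn10 was (3.33, adjusted p 0.0233). The 12 epithelial markers were also higher in these cells in batch B, with a median summed level of 561 CPM against 302 CPM in batch A, and 6 of 12 were called higher. Other marker lists moved too. The summed erythroid markers had a median of 55494 CPM in batch B against 1104 CPM in batch A, the endothelial markers 350.2 against 1380 CPM and the leukocyte markers 664 against 3060 CPM. The part of these marker differences in the Ocln and Cldn4 values was not tested.

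In the interaction test 2 of 8 genes, Cldn4 and Ocln, were called with a smaller fitted population difference in batch B, where 4.22% of all genes were called in that direction. For Ocln the interaction was -2.56 (SE 0.78, edgeR adjusted p 0.0456) and for Cldn4 it was -4.55 (SE 1.37, edgeR adjusted p 0.0472). The Cldn4 value subtracts a batch A difference measured against a group with no count. Its lower bound was taken as 4.46, from 3 counts in the library with the highest floor, and that bound is below the batch B value of 5.04. Neither the size nor the direction of the Cldn4 difference between batches is therefore fixed by this bound. Neither call was stable. Both were lost under RLE size factors (adjusted p 0.0502 and 0.0507) and under limma-voom, where the Cldn4 value was -0.68 (adjusted p 0.807). For Cldn10 the interaction was not called (-1.47, SE 0.72, edgeR adjusted p 0.253). Without batch A Sox2-negative library 3, which had the 13.4 CPM, it was -3.36 and passed (adjusted p 3.22e-04), and limma-voom also called it (-3.75, adjusted p 0.0137). For Cldn1 the interaction was 0.76 (SE 0.38, edgeR adjusted p 0.272), and without batch B Sox2-negative library 3 it was 1.27 (adjusted p 0.0210).

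Some Sox2-positive libraries of batch B stood apart in summed epithelial markers and in some of the tight junction genes. Those numbered 1 and 2 had lower summed epithelial markers, at 4500.05 and 4335 CPM in the Sox2-positive cells against 5677 to 6066 CPM in the other 5. Among the tight junction genes these libraries had the lowest Cldn1 (264 and 269.7 CPM), the lowest Cldn4 (21.7 and 21.8 CPM) and the lowest Ocln (33.3 and 37.4 CPM) of the 7. They had the highest Cldn10, at 388 and 396 CPM. For Cldn1 the distance was small, the next library having 272.6 CPM, and Cldn3, Cldn6, Cldn7 and Marveld2 did not set libraries 1 and 2 apart. The differences were noticed in the values, and the labels do not set these libraries apart. In batch B Sox2-negative cells libraries 1 and 2 were not separated in summed epithelial markers, at 549 and 561.5 CPM. Libraries 3 and 4 there had 560.6 and 581 CPM. Other summed markers did separate libraries 1 and 2 from 3 and 4 there. Mesenchymal markers were at 12554 and 12349 against 15145 and 15560 CPM. Ameloblast markers were at 596 and 617 against 710 and 712 CPM, and endothelial markers at 382 and 444 against 316 and 319 CPM. Fits without the libraries numbered 1 and 2 left out those of both populations.

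The other genes of the pathway were taken from 5 lists holding 91 genes of the table. Among 28 other claudins and claudin-domain genes, 5 had no count in any library and 12 passed the filter, of which 6 were called higher and 3 lower over both batches. Of all genes tested, as above, 24.9% were called higher and 32.5% lower. Some of the 6, such as Cldn8 and Cldn19, passed the filter through Sox2-positive libraries alone and could not have been called lower. Some genes of the lists below, such as Twist1, likewise passed through 1 population alone, so the counts per list are a description. Cldn8, a claudin of tight epithelia, rose from 0 and 0.977 CPM in Sox2-negative to 24.7 and 18.5 CPM in Sox2-positive cells of batches A and B (log2 fold change 5.70, SE 0.77, edgeR adjusted p 5.10e-07). Cldnd1, a claudin-domain gene, rose by 1.03 (SE 0.16, edgeR adjusted p 5.84e-06). Cldn5, the claudin of blood vessel endothelium, was lower, at 82.7 and 18.7 CPM in Sox2-negative and 0.0598 and 1.70 CPM in Sox2-positive cells (log2 fold change -6.03, SE 0.73, edgeR adjusted p 9.01e-08). Cldn5 is also a member of the endothelial marker list, whose summed level ran from 1182 to 1554 CPM in batch A and 316 to 444 CPM in batch B Sox2-negative libraries and was at most 37.3 CPM in Sox2-positive libraries. All 9 genes of that list were detected in each group, and their part in the Cldn5 values was not tested.

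Cldn19, a claudin of myelinating glia and some epithelia, was singled out after its values were seen. It ran from 4.21 to 48.6 CPM in batch A Sox2-positive libraries and was at most 0.432 CPM, or 1 count, in those of batch B (log2 difference -8.55, SE 0.86, edgeR adjusted p 4.54e-08). Cldn19 belongs to a list of 10 glial and neural crest markers, whose summed level ran from 1230 to 1575 CPM in batch A and from 80.1 to 119 CPM in batch B Sox2-positive libraries. Its population difference over both batches was 4.72 (SE 1.18, edgeR adjusted p 0.00133), and in batch B it was at most 0.432 CPM in either population.

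**Figure D5:**
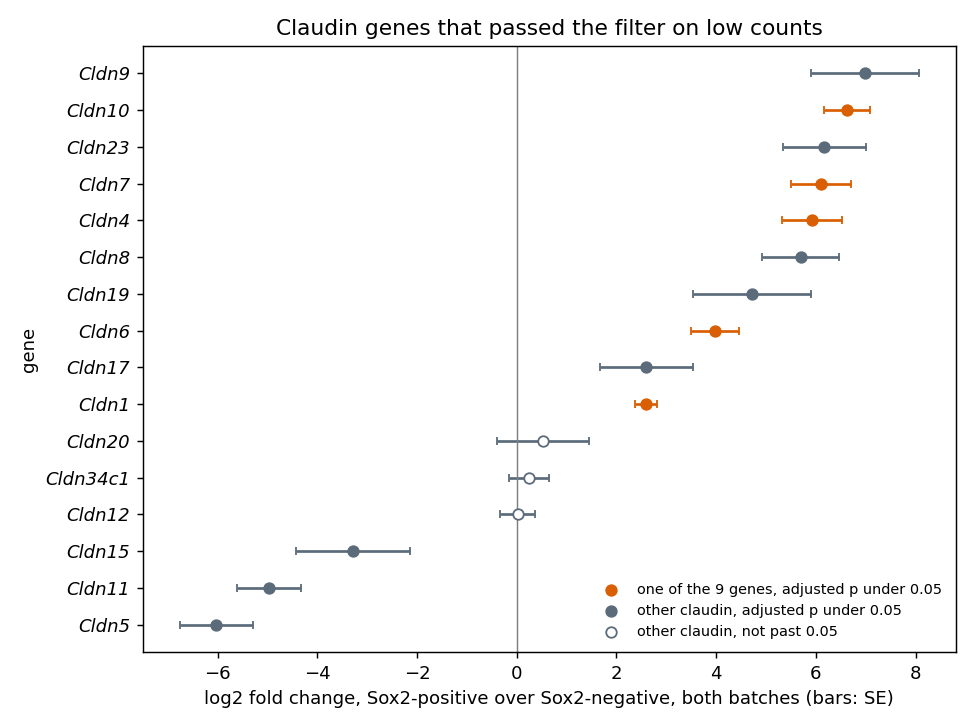
Log2 fold change of Sox2-positive over Sox2-negative cells over both batches (horizontal axis, with standard error) for each claudin that passed the filter on low counts, with called genes filled. Of the 16 genes shown 10 lie above 0 and are called, and Cldn5, Cldn11 and Cldn15 are called below 0.

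Among 11 other tight junction membrane genes that passed the filter, 4 were called higher and 5 lower, beside 24.9% and 32.5% of all genes. Lsr, which encodes angulin-1 and recruits tricellulin to cell corners, averaged 144 and 109 CPM in Sox2-positive against 9.89 and 22.4 CPM in Sox2-negative cells (log2 fold change 3.08, SE 0.30, edgeR adjusted p 1.67e-09). Cxadr, an adhesion receptor of the junction, rose by 3.05 (SE 0.34, edgeR adjusted p 2.64e-08). Esam, an endothelial adhesion molecule, had a log2 fold change of -6.40 (SE 0.58, edgeR adjusted p 4.45e-10), and Clmp one of -4.81 (SE 0.31, edgeR adjusted p 3.79e-13).

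Of 30 scaffold and polarity genes tested, the class of Tjp1, 6 were called higher, 10 lower and 14 were not called. These counts are close to the shares over all genes, 24.9% higher and 32.5% lower. Cgn, the cingulin gene of the cytoplasmic plaque, averaged 16.0 and 16.5 CPM in Sox2-positive against 3.31 and 4.71 CPM in Sox2-negative cells (log2 fold change 2.05, SE 0.35, edgeR adjusted p 1.71e-05). Patj, a polarity scaffold, rose by 1.00 (SE 0.31, edgeR adjusted p 0.00743). Amot and Amotl2, angiomotin genes, had log2 fold changes of -2.49 (SE 0.26) and -1.91 (SE 0.29).

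Of 8 partners of claudins and membrane serine proteases, 7 were called higher and 1 lower, beside 24.9% and 32.5% of all genes. Epcam encodes a membrane protein that binds claudins and stabilises Cldn1 and Cldn7 proteins. This gene, also in the epithelial marker list, averaged 779 ± 48.4 and 766 ± 22.6 CPM in Sox2-positive against 38.4 ± 15.0 and 48.3 ± 5.86 CPM in Sox2-negative cells (log2 fold change 4.18, SE 0.14, edgeR adjusted p 3.85e-19).

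Of 13 transcription factors known to act on claudin or occludin genes, 7 were called higher and 5 lower, beside 24.9% and 32.5% of all genes. Grhl2, a grainyhead-like activator of Cldn4 in other epithelia, rose by 3.18 (SE 0.30, edgeR adjusted p 1.16e-09), from 4.68 and 5.46 CPM to 36.4 and 59.4 CPM. Among the repressors, Snai1 and Snai2 had opposite signs. Snai1 averaged 55.6 ± 11.1 and 89.1 ± 22.4 CPM in Sox2-negative against 0.720 ± 0.975 and 0.544 ± 0.511 CPM in Sox2-positive cells (log2 fold change -6.76, SE 0.46, edgeR adjusted p 1.55e-12). Snai2, its close relative, rose from 27.0 and 27.6 CPM to 150.3 and 161 CPM (log2 fold change 2.51, SE 0.21, edgeR adjusted p 1.41e-10). Twist1, which is also in the mesenchymal marker list, had no count in any Sox2-positive library and averaged 25.6 and 47.7 CPM in Sox2-negative cells. The summed mesenchymal markers ran from 12349 to 15560 CPM in Sox2-negative and from 741 to 2166 CPM in Sox2-positive libraries, and their part in the levels of Snai1 and Twist1 was not tested.

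Genes whose pattern was most like the mean of the 9 were ranked by Pearson's r of log2(CPM + 1) over the 23 libraries, among genes with a mean of at least 10 CPM. The first 5 were Bnc1 (r = 0.980), Tmprss11d (0.976), Tmprss13 (0.973), Klk11 (0.970) and Ccdc6 (0.968). The libraries share the split between populations, so that any gene with a large difference scores high, and the values are a description. Within the 13 Sox2-positive libraries, which share the split between batches, the genes most like Cldn1 were Ckm (0.988) and Myog (0.980). Ckm and Myog, a muscle creatine kinase and a muscle regulatory factor, averaged 51.5 and 51.7 CPM in batch B and 0.375 and 0.378 CPM in batch A Sox2-positive cells. The genes most like Cldn10 there were Ykt6 (0.964) and Set (0.962), both higher in batch A than in batch B Sox2-positive cells, as Cldn10 was.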

How the data were processed

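Groups were taken from the labels. The authors deposited 1 table of estimated counts (expected counts) per gene for 23 libraries, with no scaling to depth, and the submitters' processing notes name FastQC, Trimmomatic, Salmon and mm10 without versions. The annotation release and strand setting are not given in the sources used here. Counts were rounded to whole numbers, and 54094 identifiers (99.5%) matched GENCODE M21. Per-sample columns left unused numbered 0. Every library was counted once, since each pair differed by more than counting noise (chi-square divided by its degrees of freedom 5.19 or more).

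Tests used edgeR 4.0.16 in R 4.3.3 (TMM, filterByExpr with a minimum count of 10, quasi-likelihood F test, two-sided, Benjamini-Hochberg over all genes tested). Interaction and between-batch values came from a model of the 4 group means. The standard error is the absolute log2 fold change divided by the square root of F. The scripts were tested on simulated data.

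The members and lists were chosen with earlier results of these data known. Named genes were the 9 members and, per wider list, up to 2 genes with the highest and 2 with the lowest called change at a mean of at least 10 CPM. Some genes of the wider lists are not reported here by name. Of the listed genes, Cldn25 and Cldn34c3 were not matched to the table. Alternatives were DESeq2 1.42.0, limma 3.58.1 voom with quality weights, other scalings and filters, a replicate block, and leaving out libraries.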

Additional observations from a re-analysis of the deposited data

Results flagged for a closer look

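Gaps between libraries were examined in the 34 sets of 1 gene in 1 group that had any spread, and 6 sets held a library far from the others. A chance rate of about 1 set in 20 holds for normally spread values. It does not hold for sets with many libraries at 0, some of which are among the 6, so the 6 cannot be compared with it. In batch A Sox2-negative cells, Cldn1 was lowest in library 5 (6.30 CPM, 30 counts), Cldn7 was highest in library 4 (0.785 CPM, 3 counts) and Cldn10 was highest in library 3 (13.4 CPM, 51 counts). In batch A Sox2-positive cells, Cldn3 was highest in library 3 (3.57 CPM, 19 counts) and Tjp1 in library 2 (69.6 CPM, 388 counts). In batch B Sox2-negative cells, Cldn3 was highest in library 4 with a single count (0.170 CPM), the others having none.

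The population difference differed between the batches for Cldn4, by -4.55 on the log2 scale (edgeR adjusted p 0.0472), and for Ocln, by -2.56 (edgeR adjusted p 0.0456). Both fitted differences were smaller in batch B, but the Cldn4 value rests on a group with no count: with batch A at its lower bound of 4.46 and batch B at 5.04, its size and direction are not fixed. Over the alternative fits the adjusted p ran from 0.0129 to 0.807 for Cldn4 and from 0.0144 to 0.361 for Ocln.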

How the results depend on the processing

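Calls of Cldn1, Cldn4, Cldn6, Cldn7, Cldn10 and Ocln as higher in Sox2-positive cells held over both batches and in each batch under every alternative that could be fitted to them, and no member's called value changed sign. The interaction calls did not hold. The number of members called was 2, and it was 1 under limma-voom, which called Cldn10 and neither Cldn4 nor Ocln, and 0 under RLE size factors, total-count scaling, the replicate block or without batch B libraries 1 and 2. It was 0 to 2 over fits leaving out 1 library. The wider lists gave 6 interaction calls under the replicate block, and all genes gave 536 with the block and 481 without batch B libraries 1 and 2. Between batches within Sox2-negative cells, limma-voom called 1 member, Cldn10, and lost Ocln and Cldn4; without batch B libraries 1 and 2 the wider lists gave 9 calls and all genes 754, and leaving out 1 library gave 10 to 17 in the wider lists. Within Sox2-positive cells limma-voom called 4 members (Cldn1, Cldn4, Cldn10 and Ocln) and 3313 genes in all, and without batch B libraries 1 and 2 the wider lists gave 8 calls and all genes 1159. The cause was not tested; fits without those libraries have fewer samples. Cldn10 averaged 503 CPM in batch A Sox2-positive cells under total-count scaling, against 472. Marveld2 over both batches was called by limma-voom (2.52, adjusted p 0.0372). Same-numbered libraries of the populations correlated in their deviations at -0.0257 to 0.0623, and no library was closest to its own number. In batch B the Sox2-positive libraries 1, 2, 3 and 4 were closest to Sox2-negative libraries 2, 1, 4 and 3. Correlations this small cannot decide whether the numbers pair the libraries. With the replicate block the Tjp1 call over both batches was lost (-0.79, edgeR adjusted p 0.0828).

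Depth limits the low levels: 3 counts corresponded to between 0.357 and 0.806 CPM in Sox2-negative libraries. Levels under this range, such as the single count of Cldn3 in batch B Sox2-negative library 4 (0.170 CPM), rest on fewer than 3 counts.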
